A study of Rattus norvegicus with 8 samples.

Results

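*Snph*, *Vnn1*, *Cpa4*, and *Crtac1* are 4 candidate genes of neonatal thyroid irradiation, out of 30560 gene identifiers in the rat thyroid count table. They had been picked from the comparison of 1w4Gy with 1w0Gy, and as genes not changed by irradiation in adults. The shift between those 2 groups is therefore given below as a description, and calls on it are not read as support. The paper kept them after quantitative RT-PCR in more rats of each group, with shifts in the same direction. It also reports Western blots of CPA4 and CRTAC1, other ages at irradiation, and a series of doses. That evidence lies outside the counts used here. Irradiation at 4 months and the difference between older and younger rats are given with their tests. Each gene was read from its transcript with the highest summed count.

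The thyroids came from male Wistar rats given sham treatment or 4 Gy of X-rays to the neck, either at 1 week of age (1w0Gy and 1w4Gy) or at 4 months of age (4m0Gy and 4m4Gy), and were taken about 8 weeks later. Each group in these counts held 2 rats, 8 in all. The study had more rats in each group and selected for sequencing the RNA samples with the higher RNA integrity. The 1-week groups were therefore young rats at sampling and the 4-month groups were older adults, and they are called younger and older below. Age and the age at treatment move together in these groups and cannot be told apart.

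Syntaphilin, the product of *Snph*, anchors mitochondria to microtubules and is best known from axons, where it holds mitochondria in place against the kinesin motors that carry them. Vanin-1, the product of *Vnn1*, is a membrane-anchored pantetheinase that splits pantetheine from coenzyme A breakdown into pantothenic acid and cysteamine, and its gene is a known target of the fatty acid receptor PPAR-alpha in liver. *Cpa4* encodes a zinc carboxypeptidase that trims hydrophobic residues from the C-terminal end of peptides. *Crtac1* encodes cartilage acidic protein 1, a secreted protein of cartilage and brain that is also known as LOTUS, an antagonist of the Nogo receptor.

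The samples held 14835400 to 18138102 counts on genes, and thyroglobulin took 18.5 to 21.3% of them. Replicates of a group differed by more than sampling noise (chi-square over genes, divided by its degrees of freedom, 7.97 to 16.2). The marker genes of thyroid follicular cells summed to 190002 to 225693 CPM, which are counts scaled to the same library size with edgeR's TMM factors. The p53 target *Cdkn1a*, which follows irradiation, stood at 15.1 and 14.4 CPM in the 1w0Gy rats, 46.6 and 38.5 in the 1w4Gy rats, 17.4 and 15.4 in the 4m0Gy rats, and 46.4 and 38.1 in the 4m4Gy rats. By this gene the samples followed their irradiation labels, and it does not show whether they followed their age labels. By the quasi-likelihood test of edgeR, with p-values adjusted after Benjamini and Hochberg, *Cdkn1a* rose by 1.53 on the log2 scale at 1 week (SE 0.12, adjusted p = 0.0334) and by 1.36 at 4 months (SE 0.13, adjusted p = 0.0150). Neither call was made without edgeR's robust moderation of the dispersions.

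Promoter sequences from RefSeq (build GRCr8) were matched for 2 of the 4 genes, *Cpa4* and *Crtac1*, and both are shown. *Snph* and *Vnn1* had no entry in the promoter reference used. They are printed as the 250 bases before the annotated start, 5′ to 3′ on the gene's strand, at chr4:60155425-60155674 on the plus strand for *Cpa4* and at chr1:251182690-251182939 on the minus strand for *Crtac1*. Capitals mark matches on either strand to the letters TATAAA of a TATA box and to TGACTCA of an AP-1 site. They also mark the CCAAT box, which reads ATTGG where it lies on the other strand. The last motif marked is the GC box with the letters GGGCGG, reversed in the *Cpa4* window, and no 2 matches overlap.
Cpa4: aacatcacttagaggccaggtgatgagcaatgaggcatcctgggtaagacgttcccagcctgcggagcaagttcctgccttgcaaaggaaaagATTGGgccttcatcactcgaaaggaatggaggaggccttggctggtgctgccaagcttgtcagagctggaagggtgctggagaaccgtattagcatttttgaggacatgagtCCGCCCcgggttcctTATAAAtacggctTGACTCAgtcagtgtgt
Crtac1: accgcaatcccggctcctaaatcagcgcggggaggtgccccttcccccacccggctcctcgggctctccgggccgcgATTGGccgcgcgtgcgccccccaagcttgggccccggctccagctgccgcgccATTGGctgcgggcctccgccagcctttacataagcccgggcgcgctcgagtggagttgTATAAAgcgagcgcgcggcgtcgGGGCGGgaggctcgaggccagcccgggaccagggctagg
The *Cpa4* promoter held TATAAA 30 bases before the start and TGACTCA 17 bases before it, with a reversed GC box at 45 and a reversed CCAAT box at 157. The *Crtac1* promoter held TATAAA 62 bases before the start, GGGCGG at 39, and reversed CCAAT boxes at 120 and 173. Of 33469 rat promoter windows of the same length, 12.9% held TATAAA, 4.05% TGACTCA, 34.0% CCAAT, and 30.5% GGGCGG. The cyclic AMP response element (TGACGTCA), present in 1.59% of the windows, was searched for and had no match in either one. These are matches of letters and were not tied to any factor by the data.

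Between genes, levels are compared in TPM, which the authors scaled by transcript length and library. *Cpa4* was the most abundant of the 4, with a mean of 86.3 TPM over the 8 samples and a range of 42.3 to 119, which ranked it 563 of 15684 genes tested. *Vnn1* averaged 9.39 TPM (4.91 to 14.7), *Snph* 7.09 TPM (1.65 to 14.1), and *Crtac1* 4.36 TPM (2.10 to 7.80), all 3 in the middle range, with 60.8%, 52.7%, and 40.2% of tested genes below them.

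**Figure D1:**
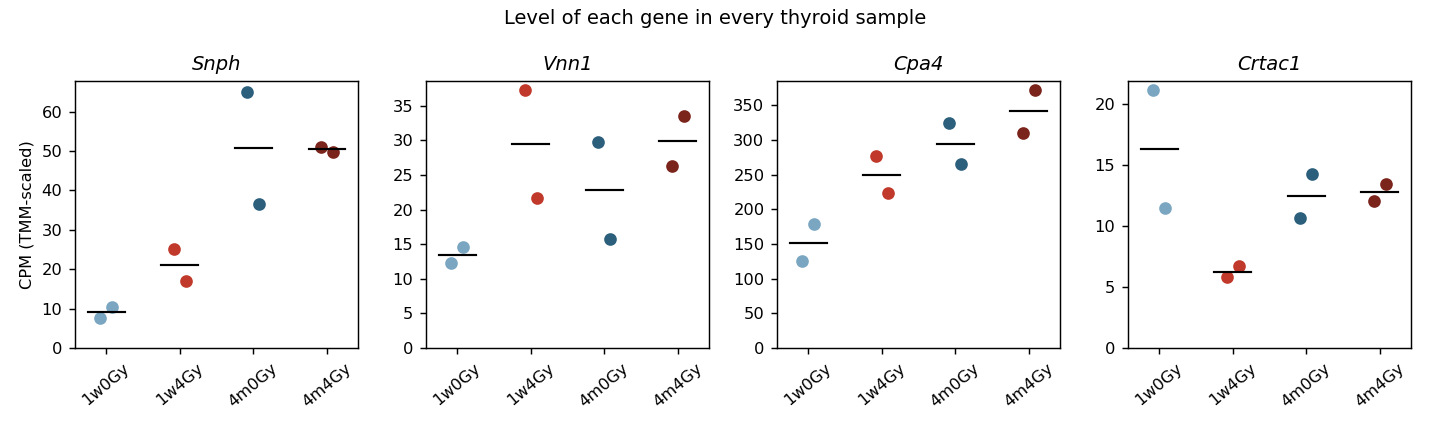
Level of each gene in every thyroid sample, in TMM-scaled CPM on a linear axis from 0, with 2 rats per group as points and the group mean as a bar. *Snph* stands at 36.5 to 64.9 CPM in the older rats and at 7.50 to 25.1 in the younger ones, and *Crtac1* is lowest in both 1w4Gy samples.

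The mitochondrial anchor *Snph* (ENSRNOG00000009588) was low in younger sham rats, intermediate in younger irradiated rats, and high in all older rats. Its level was 7.50 and 10.5 CPM in the 1w0Gy rats, 25.1 and 16.99 in the 1w4Gy rats, 64.9 and 36.5 in the 4m0Gy rats, and 51.0 and 49.8 in the 4m4Gy rats, from 139 to 1004 counts. The 4 older samples all lay above the 4 younger ones, and among the younger both irradiated samples lay above both sham samples. Group means were 9.02 ± 2.15 CPM in 1w0Gy (SD, n = 2), 21.1 ± 5.74 in 1w4Gy, 50.7 ± 20.1 in 4m0Gy, and 50.4 ± 0.885 in 4m4Gy. The mean in 1w4Gy was 2.33 times that in 1w0Gy, and the mean in older sham rats was 5.62 times that in 1w0Gy and 2.41 times that in 1w4Gy. The 1w4Gy mean thus lay between the means of younger and older sham rats. Both differences are taken from the same 1w0Gy rats, which the choice of the gene also used, so this order was not tested. The older groups were not separated from each other, since both 4m4Gy samples lay between the 4m0Gy samples.

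The pantetheinase gene *Vnn1* (ENSRNOG00000016219) was lowest in 1w0Gy, and the other 3 groups overlapped. Its level was 12.3 and 14.6 CPM in the 1w0Gy rats, 37.3 and 21.6 in the 1w4Gy rats, 29.8 and 15.8 in the 4m0Gy rats, and 26.3 and 33.5 in the 4m4Gy rats, from 228 to 600 counts. Both 1w0Gy samples lay below the other 6, the nearest being a 4m0Gy sample at 15.8 CPM. How many genes have 2 samples of a group beyond the other 6 was not counted. Such an order also rests on samples that the choice used, so nothing is read from it, here or in the genes below. Group means were 13.4 ± 1.62 CPM in 1w0Gy (SD, n = 2), 29.5 ± 11.1 in 1w4Gy, 22.8 ± 9.90 in 4m0Gy, and 29.9 ± 5.04 in 4m4Gy. The 1w4Gy mean was 2.19 times that of 1w0Gy, the older sham mean was 1.69 times that of 1w0Gy, and it was 0.773 times that of 1w4Gy. The 1w4Gy and 4m0Gy groups overlapped, with a 1w4Gy sample at 21.6 CPM inside the 4m0Gy range. Without the first 1w4Gy sample, the log2 fold change between 1w4Gy and 1w0Gy went from 1.13 to 0.69.

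The carboxypeptidase gene *Cpa4* (ENSRNOG00000010463) had group means in the ascending order 1w0Gy, 1w4Gy, 4m0Gy, and 4m4Gy. Its level was 125 and 178 CPM in the 1w0Gy rats, 276 and 224 in the 1w4Gy rats, 325 and 265 in the 4m0Gy rats, and 310 and 373 in the 4m4Gy rats, from 2324 to 5757 counts. Both 1w0Gy samples lay below the other 6, but the ranges of neighbouring groups in that order overlapped from 1w4Gy on. Group means were 152 ± 37.5 CPM in 1w0Gy (SD, n = 2), 250.05 ± 37.2 in 1w4Gy, 295 ± 42.1 in 4m0Gy, and 342 ± 44.1 in 4m4Gy. The 1w4Gy mean was 1.65 times that of 1w0Gy, and the older sham mean was 1.94 times that of 1w0Gy and 1.18 times that of 1w4Gy. The 1w4Gy samples thus stood nearer to the older sham samples than to the younger sham samples, and the younger irradiated sample at 276 CPM exceeded the older sham sample at 265. As for *Snph*, the choice of the gene used the same 1w0Gy rats, so this order was not tested.

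*Crtac1* (ENSRNOG00000015220) was the only one of the 4 that was lower after neonatal irradiation, to a level below that of younger and older sham rats alike. Its level was 21.1 and 11.5 CPM in the 1w0Gy rats, 5.78 and 6.74 in the 1w4Gy rats, 10.7 and 14.3 in the 4m0Gy rats, and 12.1 and 13.5 in the 4m4Gy rats, from 93 to 391 counts. Both 1w4Gy samples lay below the other 6, which overlapped with one another. Group means were 16.3 ± 6.81 CPM in 1w0Gy (SD, n = 2), 6.26 ± 0.674 in 1w4Gy, 12.5 ± 2.54 in 4m0Gy, and 12.8 ± 0.981 in 4m4Gy. The 1w4Gy mean was 0.384 times that of 1w0Gy, and the older sham mean was 0.765 times that of 1w0Gy and 1.99 times that of 1w4Gy. Without the higher of the 1w0Gy samples, the log2 fold change between 1w4Gy and 1w0Gy went from -1.38 to -0.87.

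On the log2 scale the fit of 1w4Gy against 1w0Gy gave 1.22 (SE 0.24) for *Snph*, 1.13 (SE 0.27) for *Vnn1*, 0.72 (SE 0.19) for *Cpa4*, and -1.38 (SE 0.30) for *Crtac1*. No p-value is given since this contrast chose the genes. The call depended on the tool in these counts, leaving aside the quantitative RT-PCR of the paper. None of the 4 was called by edgeR. There *Cdkn1a* alone passed the adjusted p threshold of 0.05 among the 15359 genes tested (0.00651%). The DESeq2 Wald test called all 4, among 22 of 11488 genes given an adjusted p (0.192%). The genes were chosen with that kind of test on these same samples, so its calls follow from the choice and give no support. In all 4 genes the 1w4Gy and 1w0Gy samples did not overlap, as was so, higher or lower, for 17.6% and 17.8% of the 15684 genes tested over all samples, and nothing is read from this share because the contrast chose the genes. In *Snph*, *Vnn1*, and *Cpa4* both 4m0Gy samples also lay above both 1w0Gy samples, as in 25.3% of genes (24.7% lay below), and in *Crtac1* they overlapped. These are the same 1w0Gy samples that the choice used. In bulk tissue, fewer cells of a type and less RNA per cell cannot be told apart, and this holds for each gene here.

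Irradiation at 4 months, a comparison of other rats, asks whether the adult thyroid showed the same shifts. The 4 genes had also been picked as not changed there, so the absence of a call was part of the choice. Of the 4 genes 0 were called by edgeR, against 3 of 15253 genes tested (0.0197%, with 0.0131% higher and 0.00656% lower). An unadjusted edgeR p under 0.05 was found in 0 of the 4, against 1280 of the 15253 genes, and nothing is read from this for so few genes. *Snph* differed by -0.01 on the log2 scale (SE 0.35, edgeR adjusted p = 0.997) and *Crtac1* by 0.03 (SE 0.17, edgeR adjusted p = 0.977). *Cpa4* differed by 0.21 (SE 0.13, edgeR adjusted p = 0.733) and *Vnn1* by 0.40 (SE 0.39, edgeR adjusted p = 0.858). In none of the 4 genes were both 4m4Gy samples above both 4m0Gy samples (20.9% of genes tested) or below them (18.5%). The 2 older sham rats differed widely in *Snph* and *Vnn1*, and the values turned on which of them was used. Without the first 4m0Gy sample *Snph* gave 0.46 and *Vnn1* 0.92, and without the second they gave -0.37 and -0.0030. These fits compare 1 sham rat with 2 irradiated rats, take the spread of the lone rat to be that of the others, and are not read as calls.

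**Figure D2:**
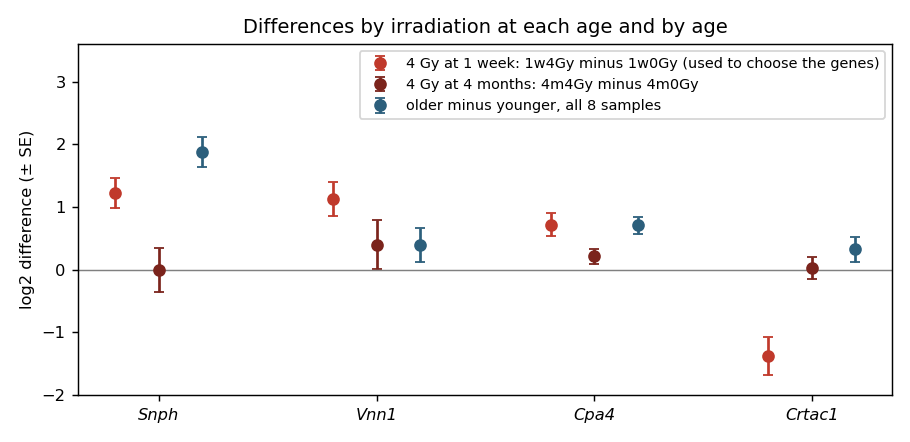
Log2 differences of the 4 genes with their standard errors, for irradiation at 1 week, irradiation at 4 months, and age over all 8 samples. *Snph*, *Vnn1*, and *Cpa4* lie above 0 for both neonatal irradiation and age, and *Crtac1* lies below 0 for neonatal irradiation only.

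The difference between the 4 older and the 4 younger rats, averaged over sham and irradiated animals, is another contrast than that of 1w4Gy with 1w0Gy, but it shares those samples, and the genes were taken up with earlier results of these data known, so its tests are not independent of the choice. In the edgeR fit, 2 of the 4 genes were called, both higher in older rats, where 4.92% of the 15684 genes tested were called (2.36% higher and 2.56% lower). *Snph* was higher by 1.87 on the log2 scale (SE 0.25, edgeR adjusted p = 0.0189), and was above all 4 younger rats in 4 of 4 older rats, as were 6.18% of genes (6.61% were lower in the same way). *Cpa4* was higher by 0.70 (SE 0.14, edgeR adjusted p = 0.0403), with overlap at one pair of samples. *Vnn1* differed by 0.39 (SE 0.28, edgeR adjusted p = 0.495) and *Crtac1* by 0.32 (SE 0.20, edgeR adjusted p = 0.409), both with overlap and without a call. The call of *Snph* held in 15 of 20 alternative analyses (adjusted p up to 0.0930) and that of *Cpa4* in 11 of 20 (adjusted p up to 0.182), with the sign of the difference the same in each.

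Marker genes of other thyroid and neck cell types moved along the same comparisons, and their part in the values above was not tested. Of all genes tested, 2.36% were called higher with age and 2.56% lower. By irradiation, 0.00651% were called at 1 week and 0.0197% at 4 months. C cell markers, with 7 of 7 detected in every sample, summed to 3332 to 5778 CPM in younger and 6254 to 8439 in older rats. Of the 7, 2 (*Calca* and *Gfra4*) were called higher with age, and only 4 had a positive difference. Fibroblast markers summed to 1558 to 2111 CPM in younger and 697 to 927 in older rats, and 4 of 6 fell with age. Macrophage markers summed to 76.6 to 90.8 CPM in younger and 45.0 to 65.2 in older rats, and 3 of 5 tested fell with age. Endothelial markers summed to 725 to 754 CPM in 1w0Gy and 858 to 898 in 1w4Gy, with a positive difference in 6 of 6 and a call by edgeR in 0. Nerve markers, where syntaphilin is usually found, summed to 25.8 to 39.2 CPM in older and 42.5 to 74.0 in younger rats, with 0 of 7 tested called by edgeR. Parathyroid markers were at 3306 to 4824 CPM in 1w0Gy and 1940 to 2899 in 1w4Gy, and reached from 343 to 5367 in 4m4Gy. Adipocyte markers stood at 445 to 563 CPM in 1w0Gy and 299 to 315 in 1w4Gy, with 0 of 7 called. Cartilage matrix genes, a tissue of *Crtac1*, summed to 297 to 310.0 CPM in younger rats, 295 to 297 in 4m0Gy, and 313 to 328 in 4m4Gy, while the defining *Acan* and *Matn1* were at or near 0.

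The next genes on either side of each member in the RefSeq order (build GRCr8) were compared with it, 3 tested neighbours a side. Of all genes tested, 2.36% were called higher with age and 2.56% lower. Irradiation called 0.00651% at 1 week and 0.0197% at 4 months, so nothing is read from the absence of such calls among neighbours. For *Snph*, 2 of 6 neighbours were called higher in older rats, both the adjacent ones, *Rad21l1* by 2.30 (SE 0.26, edgeR adjusted p = 0.00215) and *Sdcbp2* by 1.29 (SE 0.28, edgeR adjusted p = 0.0287), and the other 4 lay between 0.06 and 0.18. *Rad21l1* encodes a meiotic cohesin subunit and had few reads, 8 and 19 counts in the 1w0Gy rats, 27 and 19 in the 1w4Gy rats, 90 and 75 in the 4m0Gy rats, and 83 and 75 in the 4m4Gy rats. *Sdcbp2*, a syntenin relative, had 10 to 12 counts in younger and 19 to 29 in older rats. For *Cpa4*, which sits in a cluster of carboxypeptidase genes, 1 of 6 was called, the adjacent *Cpa5* by 2.03 (SE 0.50, edgeR adjusted p = 0.0467), from 1 to 13 counts a sample. For *Vnn1* and *Crtac1*, 0 of 6 neighbours each were called with age by edgeR, and 0 neighbours of any member were called by irradiation at either age. No RefSeq range of a member overlapped that of an adjacent gene, and whether the counting used strand is not given in the sources used here.

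**Figure D3:**
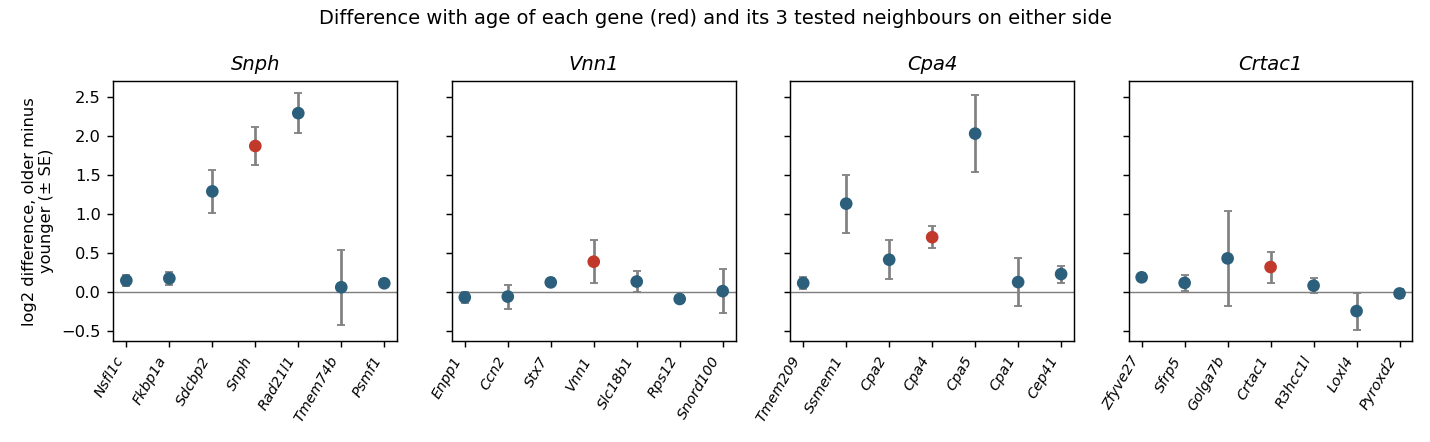
Log2 difference of older minus younger rats, with its standard error, for each member (red) and its 3 tested neighbours on either side (blue) in RefSeq order. *Sdcbp2* at 1.29 and *Rad21l1* at 2.30 stand beside *Snph* at 1.87, and *Cpa5* at 2.03 stands beside *Cpa4*.

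The genes nearest to each member in pattern were found among 13054 named genes whose mean level was 1 CPM or more, by the largest gap between their log2 CPM and the member's, each centred on its mean of the 8 samples. *Snph* was nearest to *Rad21l1* (largest gap 0.41 on the log2 scale), its neighbour, then to *Zfp536* (0.66), which encodes a zinc finger protein of the brain, and *Adra1b* (0.74), an adrenergic receptor. *Vnn1* was nearest to *Pnma1* (0.19), then *Ggt1* (0.39), a gamma-glutamyltransferase that acts on glutathione, and *Crym* (0.44), a thyroid hormone-binding protein. *Cpa4* was nearest to the potassium channel gene *Kcna5* (0.17), the water channel gene *Aqp1* (0.27), and *Rab42* (0.29). *Crtac1* was nearest to *St8sia5* (0.37), a sialyltransferase gene, *Trh* (0.41), which encodes thyrotropin-releasing hormone, and *Asgr2* (0.41). *Trh* stood at 19.2 and 10.2 CPM in the 1w0Gy rats, 7.77 and 6.55 in the 1w4Gy rats, 9.05 and 13.5 in the 4m0Gy rats, and 14.5 and 14.2 in the 4m4Gy rats. As in *Crtac1*, both 1w4Gy samples of *Trh* were the lowest of the 8 and the first 1w0Gy sample was the highest. The genes were picked for such a likeness in these same samples, so it is no separate observation. Some rest on few reads, such as *Pnma1* at 9 to 27 counts a sample and *St8sia5* at 8 to 28.

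**Figure D4:**
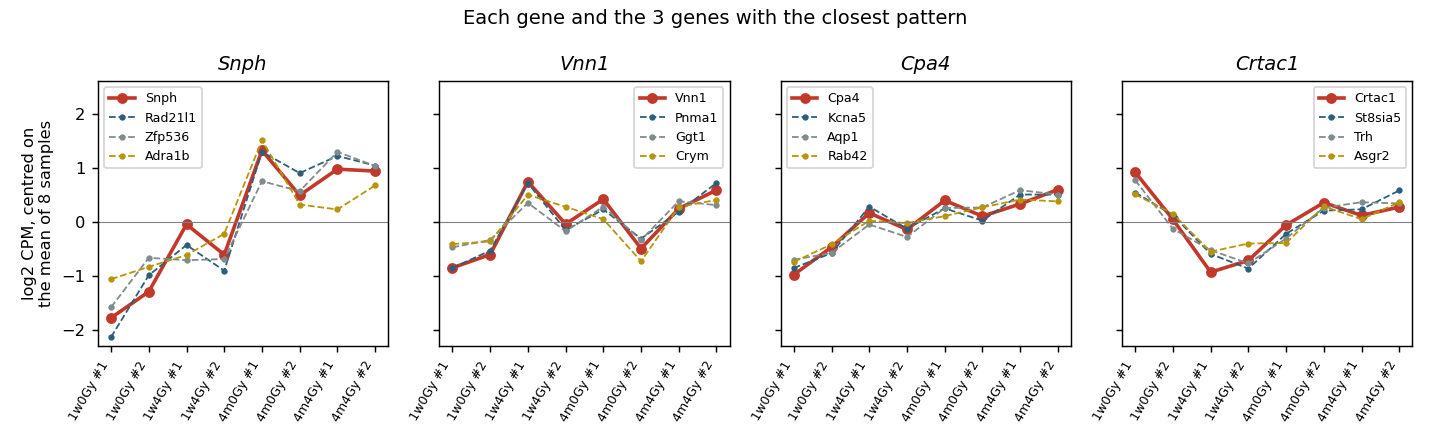
Log2 CPM of each member (red) and of the 3 genes closest to it, centred on their own means, in the 8 samples. The largest gap in any sample is 0.17 between *Cpa4* and *Kcna5* and 0.41 between *Snph* and *Rad21l1*.

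Genes of each member's pathway were counted in the same fits. Over the 6 lists, 0 genes were called by irradiation at either age, and nothing is read from this. Of all genes tested, 0.00651% were called at 1 week and 0.0197% at 4 months. The list genes called with age, where 4.92% of all genes were called, went both ways. Over all genes tested, the median log2 difference was -4.7e-06 at 1 week, 0.0091 at 4 months, and -0.0025 with age. Of 16 tested genes of mitochondrial transport and anchoring, 2 were higher in older rats, the kinesin gene *Kif5a* by 1.13 (SE 0.16, edgeR adjusted p = 0.00546) and the motor adaptor gene *Mapk8ip1* by 0.32 (SE 0.06, edgeR adjusted p = 0.0156). *Kif5a* had 2.66 to 3.56 CPM in younger and 5.81 to 7.77 in older rats, with no overlap. The list median was 0.10 at 1 week, 0.03 at 4 months, and 0.05 with age, where *Snph* stood at 1.22, -0.01, and 1.87.

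Among 17 tested genes of vanins and coenzyme A metabolism, 1 was called with age, *Cdo1*, cysteine dioxygenase, lower in older rats by 0.71 on the log2 scale. The *Vnn1* paralogue *Vnn3* was too low to test, at mean levels of 0.09 to 0.43 CPM. The list median was -0.01 at 1 week, -0.07 at 4 months, and -0.07 with age. Of the 21 tested PPAR-alpha target genes, only *Cpt1a*, carnitine palmitoyltransferase, was called with age (0.43, edgeR adjusted p = 0.0259), and the list median was -0.06 at 1 week, where *Vnn1* stood at 1.13, and -0.02 with age.

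Among the listed carboxypeptidase genes and inhibitors, which are not all of one family, *Cpq* at a mean of 339 TPM was above *Cpa4* at 86.3. Next came *Aebp1* at 51.1, *Cpe* at 48.6, and *Cpd* at 8.35 TPM. With age, 2 of 15 tested were higher, *Cpa5* and *Cpe*, a prohormone-processing enzyme (0.36, SE 0.06, edgeR adjusted p = 0.0125), and 3 were lower, *Cpz* by 1.15, the mast cell gene *Cpa3* by 0.67, and *Cpxm1* by 0.63. *Cpa3* and *Tpsb2*, 2 of 6 mast cell markers, were both lower in older rats. The list median was 0.10 at 1 week, 0.12 at 4 months, and -0.09 with age.

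**Figure D5:**
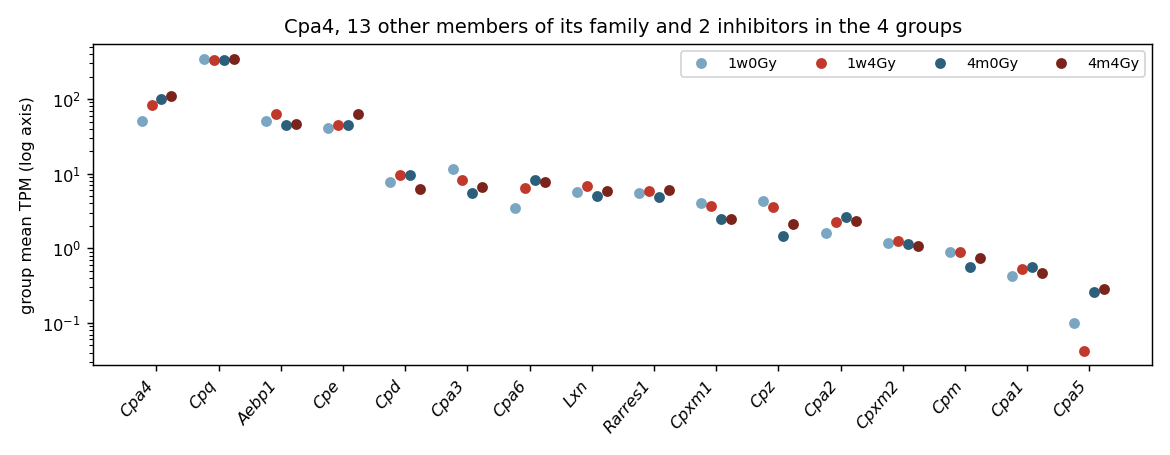
Group mean TPM on a log axis for *Cpa4*, 13 other listed carboxypeptidase or carboxypeptidase-like genes, not all of one family, and 2 inhibitors, in the 4 groups. *Cpq* and *Cpa4* are the most abundant, at means of 339 and 86.3 TPM, and *Cpa5* is the least.

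In the Nogo receptor system, the list of *Crtac1* as LOTUS, 1 of 10 tested genes was called with age, *Lrp1*, lower by 0.47 on the log2 scale, and *Rtn4*, the gene of Nogo, was the most abundant at 20.4 TPM. In the cartilage matrix list, 0 of 7 tested were called with age by edgeR. The medians of the Nogo receptor list were -0.10 at 1 week, 0.25 at 4 months, and 0.06 with age. Those of the cartilage list were 0.05, -0.05, and 0.01, where *Crtac1* stood at -1.38, 0.03, and 0.32. The other 2 transcripts of *Crtac1* (2048 and 1979 bases) carried the same counts as each other, so they give no separate support, and held 316 and 173 counts in the 1w0Gy rats, 76 and 95 in the 1w4Gy rats, 124 and 206 in the 4m0Gy rats, and 151 and 175 in the 4m4Gy rats. *Snph* also had 3 transcripts, with 139, 134, and 134 counts in the first 1w0Gy sample and 1004, 997, and 990 in the first 4m0Gy sample, and *Vnn1* and *Cpa4* had 1 each.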

How the data were processed

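RNA-Seq counts, RPKM, and TPM of thyroid RNA from 8 rats were deposited for 54991 transcripts (30560 gene identifiers, of which 7162 carry no name). The authors mapped reads with HISAT2 2.2.1, counted them with featureCounts 2.0.0, and scaled RPKM and TPM by transcript length. The genome build and strand setting are not given in the sources used here. The deposited raw counts were used for all tests and the deposited TPM only for levels between genes and one alternative. RPKM was not used. No column holds results of other series.

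The transcript with the highest summed count was taken for each gene. Counts were tested with edgeR 4.0.16 (R 4.3.3) by quasi-likelihood F tests with robust dispersion moderation, TMM, filterByExpr, and Benjamini-Hochberg adjustment. The robust setting was adopted after a fit without it had been seen. Irradiation was fitted at each age on its own 4 samples and age on all 8, as the mean of the 4-month minus that of the 1-week groups. DESeq2 1.42.0 and limma 3.58.1 on log2(TPM + 1) were alternatives, as were other size factors, no filter or a minimum of 10 counts, sums over transcripts, the longest transcript, a replicate block, sham or irradiated samples alone, and leaving out each sample. SE is the log2 difference divided by the square root of F. Replicates are separate rats. The members and lists were chosen with earlier results of these data known. Named are the members, their 3 nearest patterns by the smallest largest gap (prior count 2), their neighbours, Cdkn1a, and in each list up to 4 genes of highest level and up to 4 that passed a test. Promoters and neighbours come from RefSeq GRCr8, and its coordinates were not mixed with those of the counting. The scripts were tested on simulated data. One marker gene is not reported here.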

Additional observations from a re-analysis of the deposited data

How the results depend on the processing

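With 2 rats a group, the spread between replicates limits every value, and the replicate numbers give no pairing: rats of different groups share only a number, and the correlations of their deviations ranged from -0.23 to 0.15. The numbers of genes called moved most. At 1 week, where 1 gene was called, DESeq2 called 22, no filter 5, the replicate block 23, and no robust moderation, the sum over transcripts, and limma 0 each, and leaving out one sample gave 2 to 61. At 4 months, where 3 were called, DESeq2 called 11, no filter 81, the replicate block 59, all 8 samples in the fit 1, and no robust moderation, the sum over transcripts, and limma 0 each, and leaving out one sample gave 3 to 123. With age, where 771 were called, limma called 431, sham samples alone 163, irradiated samples alone 136, and leaving out one sample gave 250.0 to 895. The robust setting was compared after seeing the data.

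At 4 months *Snph* changed sign with the upper quartile (0.0064), the replicate block (0.040), and the sum over transcripts (0.00056), and ranged from -0.37 to 0.46 without one sample. *Crtac1* changed sign with limma (-0.014) and ranged from -0.16 to 0.25, *Vnn1* from -0.0030 to 0.92, and *Cpa4* from 0.061 to 0.36. Without the first 4m0Gy sample the adjusted p was 0.0137 for *Vnn1* and 0.0483 for *Snph* (edgeR, with 1 rat left in that arm, assumed to vary like the rest), against up to 0.999 and 0.9999 over the other alternatives. With age *Snph* ranged from 1.64 to 2.06 without one sample, with an adjusted p over 0.05 without either 1w0Gy sample, 1w4Gy replicate 2, or 4m4Gy replicate 1, and was 2.49 in sham samples alone (edgeR adjusted p = 0.0930). *Cpa4* with age was 0.71 with no filter (adjusted p = 0.0923), 0.70 with the replicate block (adjusted p = 0.0791), 0.96 in sham samples alone (adjusted p = 0.129), and 0.45 in irradiated samples alone (adjusted p = 0.182), and ranged from 0.59 to 0.85 without one sample, passing only without either 1w0Gy sample or 4m0Gy replicate 2. *Crtac1* with age was -0.39 in sham samples alone and 1.03 in irradiated samples alone (edgeR adjusted p = 0.0441), both of which share samples with the contrast behind its choice, and ranged from 0.14 to 0.58, and *Vnn1* from 0.13 to 0.61. At 1 week, leaving out one sample moved *Snph* between 0.92 and 1.49, *Vnn1* between 0.69 and 1.47, *Cpa4* between 0.49 and 1.00, and *Crtac1* between -1.75 and -0.87. The causes were not tested.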

Other observations

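The carboxypeptidase gene *Cpa6*, chosen after its values were seen, stood at 6.69 and 7.12 CPM in the 1w0Gy rats, 10.4 and 14.9 in the 1w4Gy rats, 13.4 and 19.6 in the 4m0Gy rats, and 11.3 and 20.7 in the 4m4Gy rats. As in *Cpa4*, both 1w0Gy samples lay below the other 6, an order that was not counted over all genes. The difference with age was 0.80 on the log2 scale (SE 0.23, edgeR adjusted p = 0.0960), which did not pass the threshold.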
